A study of Homo sapiens with 9 samples.

Results

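The genes described here build the extracellular matrix, the protein scaffold that cells secrete and stand on. They were taken as a list of 35 collagens, laminins and other matrix genes, chosen with earlier results of these data known. Each was read through its probe set with the highest mean level over all arrays. Of the 35, 33 were measured among 18132 genes, and COL17A1 and LAMA3 were not analysed here. By textbook role 14 of the 33 belong to basement membranes and 18 to the interstitial matrix, and COL13A1, a collagen anchored in the cell membrane, was set in neither class.

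RNA came from the human breast cancer line MDA-MB231, an established line of mesenchymal, triple-negative character, grown as a single cell type in serum-containing medium. Controls (n = 4 cultures) received 0.1% DMSO as vehicle. A second group (n = 2) received 10 µM BB94, which is batimastat, a broad inhibitor of the metalloproteinases that cut matrix and cell surface proteins. The third (n = 3) received 3 µM PD325901, an inhibitor of MEK, the kinase directly upstream of ERK. Cells were plated at 70% confluency, dosed on the next day from a stock in DMSO, and lysed 24 h later at 90% confluency. Per the series design text the replicates are biological. Whether cultures were set up on separate days was not given in the sources used here, so p-values measure the spread between these cultures.

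Basement membranes are thin sheets under epithelia and around vessels. Laminin trimers of an alpha, a beta and a gamma chain form one network, type IV collagen forms another, and nidogen, perlecan and agrin link both. The interstitial matrix is a looser mesh of fibrillar collagens, fibronectin, fibrillin and small proteoglycans, hardened by lysyl oxidases. Tumour cells make components of both, which they adhere to, migrate on and remodel with metalloproteinases.

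The start regions of COL4A1, COL4A2, LAMB1, COL4A5 and FN1 are shown, from the RefSeq table of assembly GRCh38.p14, to set their letters beside the levels that follow. Capitals mark GC boxes (GGGCGG, an Sp1-type element) and CCAAT boxes (CCAAT) on either strand. COL4A1 and COL4A2 lie head to head, so a stretch of 126 bases between their starts, chr13:110307158-110307283, plus strand, serves as the start region of both. The others are the 250 bases before the start, in the gene's direction: LAMB1 at chr7:108003162-108003411, minus strand, COL4A5 at chrX:108439588-108439837, plus strand, and FN1 at chr2:215436069-215436318, minus strand. The FN1 stretch overlaps FN1-DT, a RefSeq gene that runs the other way.
COL4A1-COL4A2: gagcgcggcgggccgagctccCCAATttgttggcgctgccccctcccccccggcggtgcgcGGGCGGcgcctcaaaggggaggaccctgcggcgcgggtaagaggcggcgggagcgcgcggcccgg
LAMB1: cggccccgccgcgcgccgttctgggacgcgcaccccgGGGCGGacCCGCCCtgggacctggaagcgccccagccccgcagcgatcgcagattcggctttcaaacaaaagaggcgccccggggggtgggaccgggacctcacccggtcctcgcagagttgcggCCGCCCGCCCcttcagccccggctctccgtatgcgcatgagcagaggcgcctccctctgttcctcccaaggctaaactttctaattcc
COL4A5: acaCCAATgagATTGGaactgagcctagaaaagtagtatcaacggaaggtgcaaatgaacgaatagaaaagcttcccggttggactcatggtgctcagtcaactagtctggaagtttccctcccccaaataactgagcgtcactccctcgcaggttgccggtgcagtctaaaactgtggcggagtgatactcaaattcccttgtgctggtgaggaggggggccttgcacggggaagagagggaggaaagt
FN1: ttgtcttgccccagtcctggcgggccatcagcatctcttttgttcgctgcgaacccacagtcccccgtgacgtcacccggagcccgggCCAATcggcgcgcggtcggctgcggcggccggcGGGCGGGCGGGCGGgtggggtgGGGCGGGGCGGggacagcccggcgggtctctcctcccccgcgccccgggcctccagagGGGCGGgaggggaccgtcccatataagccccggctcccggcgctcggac
The stretch shared by COL4A1 and COL4A2 was 80.2% G or C and held 1 GC box and 1 CCAAT box. LAMB1 held 4 GC boxes, FN1 held 6 GC boxes and 1 CCAAT box, and COL4A5 held 2 CCAAT boxes and 0 GC boxes. GC boxes can overlap one another where they are repeated.

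Windows of 250 bases before the start were found for 25 of the 33 members. A GC box occurred in 19 of them (76%), against 42.2% of all 27305 RefSeq windows of that length. The CCAAT box occurred in 7 (28%), against 33% of all windows, and the TATA box (TATAAA) in 3 (12%), against 11.2%. The AP-1 motif (TGANTCA, both strands), the element of the FOS and JUN factors, occurred in 0 of the 25 and in 6.57% of all windows. These are matches of letters in a short window and no record of binding. All RefSeq windows had a median of 57.6% G or C, and the printed ones had 70.4% (LAMB1), 76.4% (FN1) and 51.2% (COL4A5). The shares were not matched for base composition or limited to measured genes, so no excess of GC boxes is read from them.

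The markers of the labelled cell type were present. Background is the highest of 23 background probe sets on each array. It was 6.02 to 6.28 in controls, 6.22 and 6.27 with BB94 and 6.36 to 6.50 with PD325901. VIM, CD44, AXL and MET lay above background on all 9 arrays. ESR1, PGR and CDH1 lay below it on every array, and EPCAM lay above it. Of 7 fibroblast and stromal markers, DCN, PDGFRA, THY1 and FAP lay below background on every array. ACTA2 lay above it on all 9, and PDPN and PDGFRB on some. The mean level of the 7 ran from 5.11 to 5.45 in controls, 5.14 to 5.18 with BB94 and 5.46 to 5.56 with PD325901, and their part in the results was not tested. Endothelial CDH5, VWF and TEK and leukocyte PTPRC, CD14 and CD3E were also below background throughout. In contrast, endothelial PECAM1 was above it on some arrays and leukocyte CD68 on all 9. Among these marker genes 4 were called with PD325901: PECAM1 fell by 2.81, MET fell by 0.74, PDPN rose by 1.10 and CDH1 rose by 1.39 on the log2 scale, CDH1 while below background. ACTA2 (0.23) and CD68 (0.26) were higher on every PD325901 array than in any control but were not called, and against BB94 the PD325901 arrays were called higher for ACTA2, PDGFRB and PDPN. The mean level of the 4 endothelial markers was 5.92 to 6.10 in controls, 5.76 and 5.80 with BB94 and 5.21 to 5.50 with PD325901. Their median log2 change with PD325901 was -0.04, and the lowest was that of PECAM1. The difference between the 3' and 5' probe sets of ACTB, a measure of RNA integrity, was 2.96 to 3.89 in controls, 3.91 and 4.22 with BB94 and 3.50 to 4.15 with PD325901. Control replicates 1 and 2 stood apart from replicates 3 and 4 in several members below, and calls that differ between these pairs of controls are given beside the results.

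All 33 members were set against the control mean of each gene, array by array. Of these, 27 lay above background on all 9 arrays, COL6A2 did so on some, and NID1, COL1A2, COL3A1, LUM and BGN did so on none. NID1 is the linker nidogen, COL1A2 and COL3A1 are chains of the major fibrillar collagens, and LUM and BGN are small proteoglycans. A probe set below background gives only a bound, so no level is read from these 5. The line is strict, as the median of the 23 background probe sets was 2.92 to 3.05, so a gene below it need not be absent. The heat map by array shows the members in which the 3 PD325901 arrays stood apart from the other 6 and those in which they did not.

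**Figure D1:**
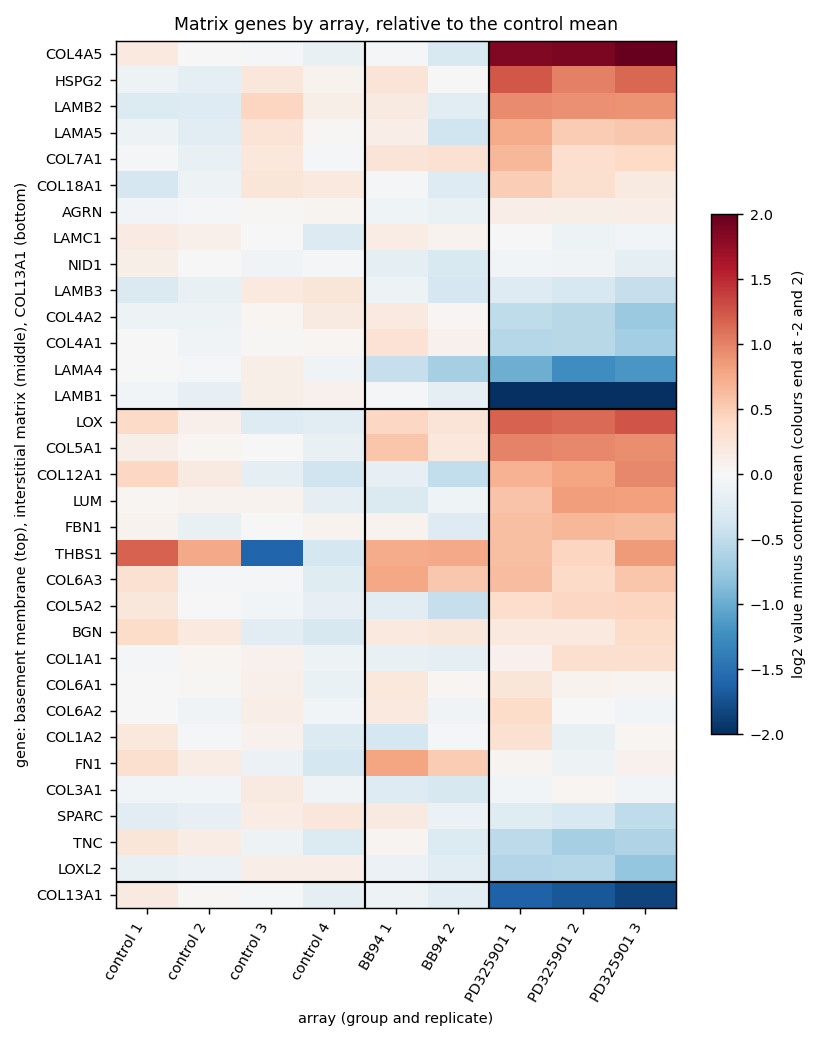
Log2 value of each of the 33 matrix genes (vertical axis) on each of the 9 arrays (horizontal axis) minus the mean of the 4 controls; red is higher, blue is lower, and colours end at -2 and 2. PD325901 arrays were low for LAMB1, COL13A1 and LAMA4 and high for COL4A5, LOX and HSPG2, and THBS1 varied among the controls from 8.11 to 10.87.

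With PD325901 the matrix genes moved in both directions. LAMB1, COL13A1 and LAMA4 fell by more than 2-fold, and COL4A5, LOX and HSPG2 rose by more than 2-fold. Changes of that size were called lower in 2.64% and higher in 5.29% of all genes. In all 12 members, with LUM below background among them, were called higher (36.4%), against 22.8% of all genes. Called lower were 7 (21.2%), against 12.3% of all genes. Both calls are limma's moderated test at an adjusted p under 0.05. The direction of each of these 19 members was the same under each of the scalings tried, but the balance of calls was not: centring arrays on their medians gave 9 higher and 12 lower, and cyclic loess 10 and 8. In those fits the median change of all genes moved from 0.08 to -0.17 and -0.01. At an unadjusted p under 0.05, 14 members were higher and 9 lower. The 3 PD325901 arrays all lay above the 4 controls for 13 members (39.4%), against 25.6% of all genes, and all below them for 8 (24.2%), against 14.8%. The absolute log2 change had a median of 0.59 over the matrix genes and 0.19 over all genes. Below background on all 9 arrays were 5 of the 33 members and 6877 of all 18132 genes, so members were detected more often. Neither these medians nor the shares called were matched for level. RNA was measured in bulk, so fewer cells of a kind and less RNA per cell cannot be told apart.

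In the basement membrane class 5 of 14 rose (COL4A5, HSPG2, LAMB2, LAMA5 and COL7A1) and 4 fell (LAMB1, LAMA4, COL4A1 and COL4A2). In the interstitial class 7 of 18 were called higher (LOX, COL5A1, COL12A1, FBN1, COL6A3, COL5A2 and, below background on every array, LUM) and 2 fell (LOXL2 and TNC). The medians of both classes turned with the scaling: for the basement membrane it was 0.04 on the log2 scale, and -0.22 with arrays centred, while for the interstitial matrix it was 0.24, and -0.01 with arrays centred. No test compared the classes, whose members ranged from -2.78 to 1.91 and from -0.65 to 1.19.

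**Figure D2:**
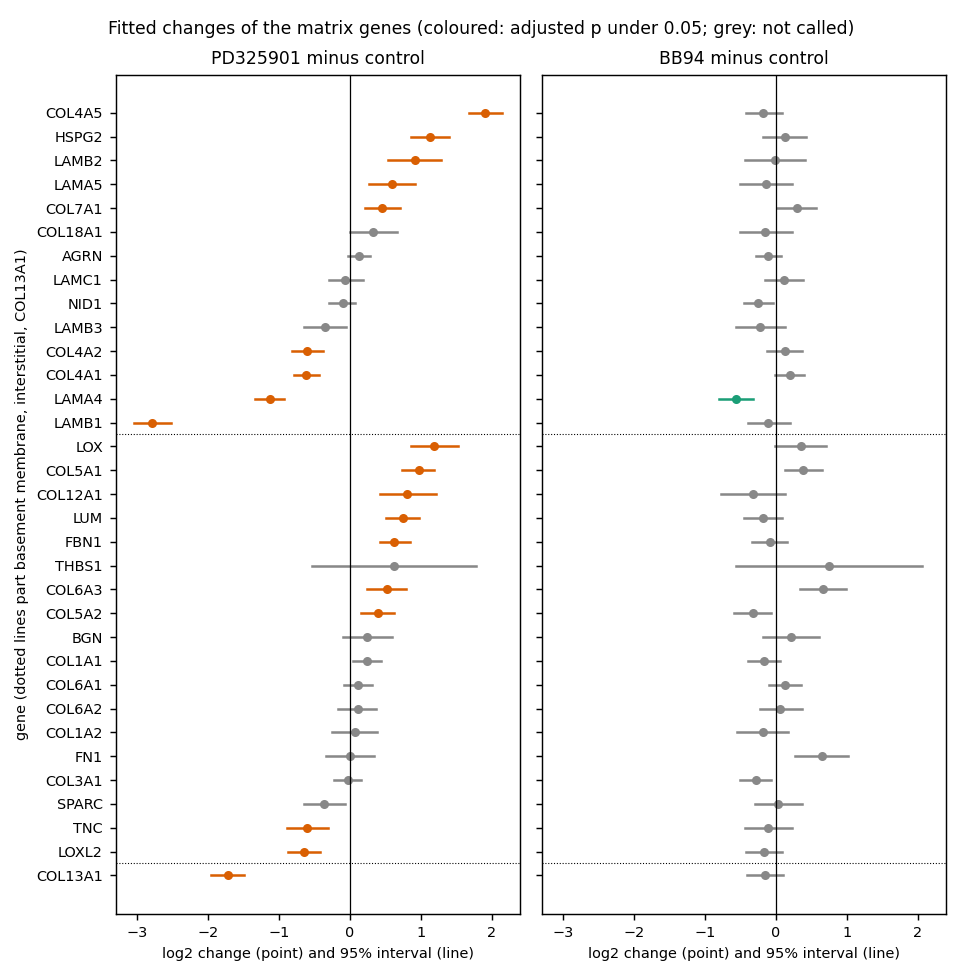
Fitted log2 change (horizontal axis, point) with its 95% interval (line) for each matrix gene (vertical axis), for PD325901 against control on the left and BB94 against control on the right, coloured where the adjusted p was under 0.05. The left panel runs from LAMB1 at -2.78 to COL4A5 at 1.91, and in the right panel LAMA4 at -0.57 is the coloured gene; with arrays centred on their medians 9 members were called higher and 12 lower on the left.

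The type IV collagens form the network of the basement membrane. COL4A1 and COL4A2, the chains of its common trimer, both fell with PD325901, and COL4A5, a chain of a more specialised trimer, rose. COL4A1 read 10.81, 10.73, 10.82 and 10.83 in the controls, 11.09 and 10.88 with BB94 and 10.22, 10.24 and 10.11 with PD325901. The PD325901 arrays all lay below the controls, and the fall was 1.52-fold (log2 change -0.61, SE 0.08, limma adjusted p = 0.000164). COL4A2 read 11.62, 11.62, 11.76 and 11.90 in the controls, 11.92 and 11.77 with BB94 and 11.22, 11.17 and 10.99 with PD325901. Again no PD325901 array reached a control, and the fall was 1.51-fold (-0.60, SE 0.10, limma adjusted p = 0.000777). These are the 2 genes that share the start region printed above. All 3 probe sets of COL4A2 were called lower, whereas 1 of 3 was for COL4A1, with changes of -0.61 to -0.25.

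COL4A5 read 7.18, 6.97, 6.96 and 6.83 in the controls, 6.94 and 6.68 with BB94 and 8.84, 8.86 and 8.99 with PD325901. The PD325901 arrays lay far above the rest, and the rise was 3.76-fold (log2 change 1.91, SE 0.10, limma adjusted p = 2.79e-07). Its other probe sets were also called higher, by 0.90 and 1.12 on the log2 scale, but lay below background on every array. COL4A6, its neighbour in a head-to-head pair like that of COL4A1 and COL4A2, had a mean of 6.12 in controls, of which 2 of 4 lay above background, and a PD325901 change of -0.05 (adjusted p = 0.818). COL18A1, whose C-terminal fragment is endostatin, averaged 8.34 ± 0.27 (SD, n = 4) in controls and 8.68 ± 0.15 (n = 3) with PD325901, which did not pass the test (0.33, limma adjusted p = 0.107). It was called against control replicates 1 and 2 alone (0.55, adjusted p = 0.00823) and with array weights (0.39, 0.00945). COL7A1, which forms the anchoring fibrils below epithelial basement membranes, averaged 7.65 ± 0.15 (SD, n = 4) in controls and 8.12 ± 0.17 (n = 3) with PD325901, a rise of 1.38-fold (0.46, SE 0.11, limma adjusted p = 0.00639). That call was lost with arrays centred (adjusted p = 0.124) and with cyclic loess (0.0675).

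Among 6 laminin chains, PD325901 lowered 2 and raised 2, in each case an alpha and a beta chain. LAMB1, the beta chain of most early laminins, had the lowest change of all members. It read 10.55, 10.44, 10.72 and 10.68 in the controls, 10.58 and 10.40 with BB94 and 8.06, 7.75 and 7.63 with PD325901. The BB94 arrays overlapped the controls, and the PD325901 arrays lay more than 2 log2 units lower, a 6.87-fold fall (-2.78, SE 0.12, limma adjusted p = 5.94e-08). Its other probe set, below background on every array, fell by 0.54 on the log2 scale (adjusted p = 0.000943). LAMB2, the beta chain that replaces LAMB1 in many mature laminins, moved the other way. It read 9.31, 9.33, 10.02 and 9.70 in the controls, 9.77 and 9.37 with BB94 and 10.53, 10.50 and 10.49 with PD325901. The controls spread over a wide range that the PD325901 arrays all exceeded, and the rise was 1.89-fold (0.92, SE 0.17, limma adjusted p = 0.00146).

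LAMA4, the alpha chain of vascular and mesenchymal laminins, read 8.14, 8.11, 8.27 and 8.08 in the controls, 7.69 and 7.48 with BB94 and 7.17, 6.91 and 6.99 with PD325901. The 3 groups did not overlap, and the PD325901 fall was 2.18-fold (-1.13, SE 0.09, limma adjusted p = 5.79e-06). Of its 4 probe sets 3 were called lower, by smaller amounts in the other 2 (-0.50 and -0.47). LAMA5, the alpha chain of most adult epithelial basement membranes, read 8.15, 8.04, 8.52 and 8.27 in the controls, 8.38 and 7.84 with BB94 and 8.99, 8.75 and 8.78 with PD325901. It rose 1.51-fold (0.59, SE 0.15, limma adjusted p = 0.00914), with the BB94 arrays among or below the controls. Against control replicates 3 and 4 alone the LAMA5 call was lost (adjusted p = 0.0521). The gamma chain LAMC1, part of most laminins, averaged 12.71 ± 0.19 (SD, n = 4) and 12.66 ± 0.04 (n = 3), a difference of -0.06 with a 95% interval of -0.29 to 0.18. Its next 3 probe sets gave -0.24, -0.35 and -0.61, the last called lower (adjusted p = 0.00157), and with arrays centred LAMC1 was called lower (-0.31, adjusted p = 0.0387). LAMB3, a chain of the laminin that anchors epidermis, averaged 11.54 ± 0.25 and 11.19 ± 0.10 (SD), which did not pass (-0.35, limma adjusted p = 0.0725) but was called without control replicate 1 (-0.44, adjusted p = 0.013), against control replicates 3 and 4 alone (-0.56, 0.00222), with arrays centred (-0.60, 0.00237) and in the trended and robust fit (0.0424).

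**Figure D3:**
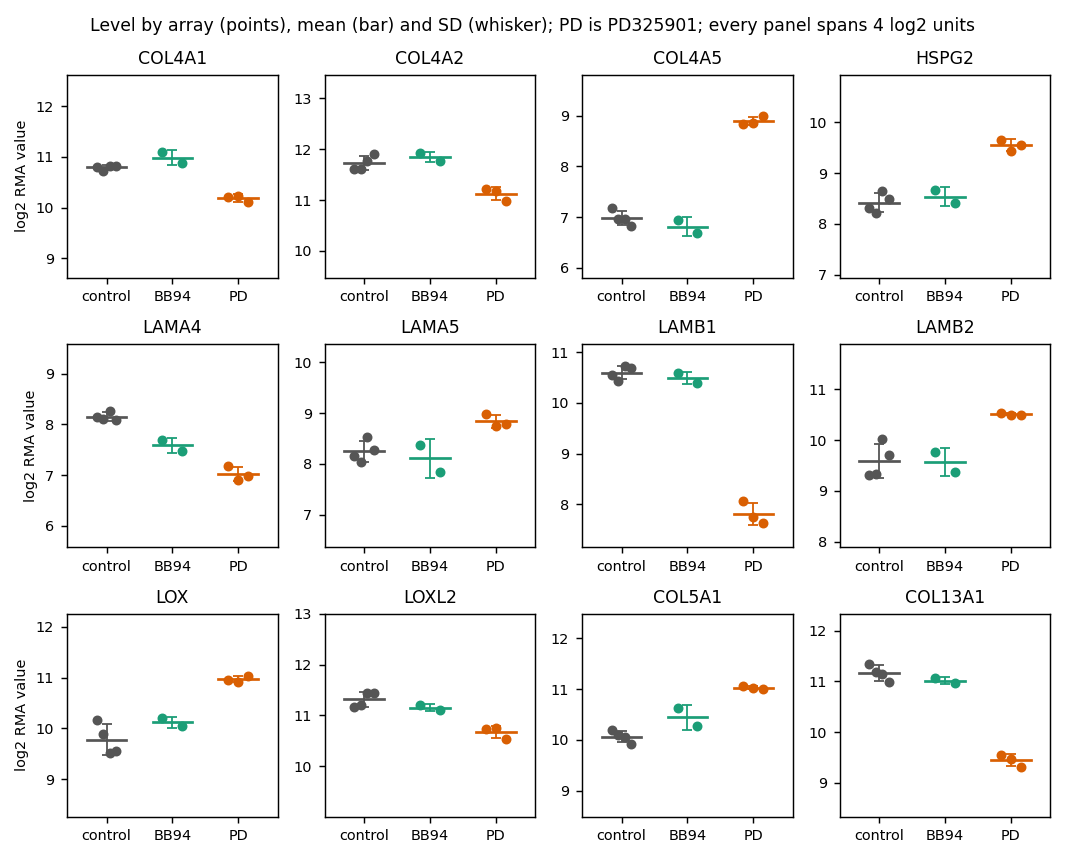
Log2 RMA level (vertical axis) of 12 matrix genes on each array (points) in the control, BB94 and PD325901 groups (horizontal axis), with the mean (bar) and SD (whisker); every panel spans 4 log2 units. LAMB1 dropped from 10.60 to 7.82 with PD325901 while LAMB2 went from 9.59 to 10.50, and COL4A1 and COL4A2 went down while COL4A5 went up.

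Of the proteins that link the networks, perlecan rose. HSPG2, which encodes this heparan sulfate proteoglycan, read 8.31, 8.22, 8.64 and 8.49 in the controls, 8.67 and 8.41 with BB94 and 9.66, 9.43 and 9.56 with PD325901. The PD325901 arrays stood above all others by most of a log2 unit, and the rise was 2.19-fold (1.13, SE 0.12, limma adjusted p = 2.97e-05). It was called in 1 of the 2 HSPG2 probe sets, and the other (-0.01) lay below background on every array. AGRN, encoding agrin, averaged 12.88 ± 0.05 (SD, n = 4) in controls and 13.01 ± 0.01 (n = 3) with PD325901. All 3 of those arrays were above the controls, yet the difference of 0.13 did not pass (limma adjusted p = 0.20). NID1 was below background throughout, and its relative NID2 averaged 7.63 in controls, 7.78 with BB94 and 7.62 with PD325901, with neither difference called.

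Among the 5 fibrillar collagens, both type V chains rose and the type I and III chains were not called. Type V collagen sits inside type I fibrils and limits their width. COL5A1 read 10.19, 10.10, 10.06 and 9.91 in the controls, 10.62 and 10.27 with BB94 and 11.06, 11.02 and 11.00 with PD325901. The groups were ordered without overlap, and the PD325901 rise was 1.95-fold (0.97, SE 0.10, limma adjusted p = 3e-05), called in all 4 probe sets. COL5A2 read 6.91, 6.70, 6.63 and 6.52 in the controls, 6.48 and 6.23 with BB94 and 7.04, 7.11 and 7.12 with PD325901. Its rise of 1.32-fold (0.40, SE 0.11, limma adjusted p = 0.0127) was small. It was not called with arrays centred (adjusted p = 0.273), with cyclic loess (0.146), with the mean of its probe sets (0.0897) or against control replicates 1 and 2 alone (0.0671). COL1A1, the main chain of type I collagen, averaged 6.89 ± 0.08 (SD, n = 4) and 7.13 ± 0.13 (n = 3), just short of the threshold (0.24, limma adjusted p = 0.0555). It was called without PD325901 replicate 1 (0.32, adjusted p = 0.0284), with the filter on the mean (0.0298) and with array weights (0.0154).

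Collagens that sit on or between fibrils were measured as 4 genes, of which COL12A1 and COL6A3 rose. COL12A1, whose product coats type I fibrils, read 9.89, 9.65, 9.28 and 9.08 in the controls, 9.31 and 8.98 with BB94 and 10.17, 10.26 and 10.44 with PD325901. Control replicates 1 and 2 were the closest to the PD325901 arrays, and the rise was 1.76-fold (0.81, SE 0.18, limma adjusted p = 0.00447). COL6A3, a chain of the beaded type VI filaments, read 7.12, 6.80, 6.78 and 6.58 in the controls, 7.60 and 7.36 with BB94 and 7.43, 7.20 and 7.37 with PD325901. Arrays of both inhibitors lay above all controls, and the PD325901 rise was 1.43-fold (0.52, SE 0.13, limma adjusted p = 0.00837). It lost its call with the mean of its probe sets (adjusted p = 0.113), the other 2 of which are dim, and with arrays centred (0.0898). The partner chains COL6A1 and COL6A2 differed from control by 0.12 (95% interval -0.08 to 0.32) and 0.11 (-0.16 to 0.37) and were not called.

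Of the large glycoproteins, fibrillin rose and fibronectin did not differ detectably. FBN1, which encodes the core of microfibrils, read 10.63, 10.41, 10.57 and 10.63 in the controls, 10.63 and 10.30 with BB94 and 11.16, 11.22 and 11.20 with PD325901. The 3 treated arrays were tightly grouped above the rest, a rise of 1.55-fold (0.63, SE 0.10, limma adjusted p = 0.000429) that 4 of 5 probe sets shared. Of those 5, only 2 lay above background on any array. FN1, fibronectin, a ligand of many integrins, read 11.07, 10.90, 10.63 and 10.39 in the controls and 10.80, 10.64 and 10.84 with PD325901. These ranges overlap, and the difference was 0.01 (95% interval -0.33 to 0.34). Across its 8 probe sets the PD325901 difference ran from -0.22 to 0.05, with 0 called.

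LUM, lumican, was called higher, but on arrays that were all below background. It read 3.49, 3.52, 3.52 and 3.25 in the controls, 3.16 and 3.36 with BB94 and 4.02, 4.28 and 4.27 with PD325901, a log2 difference of 0.75 (SE 0.11, limma adjusted p = 0.000244) from which no fold is given. BGN, biglycan, was also below background (difference 0.25, adjusted p = 0.269), and it passed without control replicate 1 (0.37, adjusted p = 0.0414) and against control replicates 3 and 4 alone (0.52, 0.00141). COL3A1, below background as well, was called lower with arrays centred (-0.28, adjusted p = 0.0281).

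The lysyl oxidases cross-link collagen and elastin, and the 2 members moved apart. LOX read 10.16, 9.88, 9.52 and 9.56 in the controls, 10.20 and 10.04 with BB94 and 10.96, 10.91 and 11.04 with PD325901. All PD325901 arrays lay above all others, a 2.29-fold rise (1.19, SE 0.15, limma adjusted p = 8.89e-05), and 5 of 6 probe sets were called higher, with changes of 0.16 to 1.75. LOXL2 read 11.16, 11.20, 11.45 and 11.45 in the controls, 11.20 and 11.10 with BB94 and 10.73, 10.75 and 10.54 with PD325901. It fell 1.56-fold (-0.65, SE 0.10, limma adjusted p = 0.000577), and 3 of its 4 probe sets were called lower. A relative outside the list, LOXL4, read through the same kind of probe set, went from 7.59 ± 0.18 (SD, n = 4) to 11.67 ± 0.06 (n = 3), a 16.9-fold rise (4.07, limma adjusted p = 3.17e-09).

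Matricellular proteins signal to cells more than they bear load. TNC, tenascin C, read 11.06, 10.96, 10.71 and 10.54 in the controls, 10.87 and 10.55 with BB94 and 10.29, 10.16 and 10.21 with PD325901. The PD325901 arrays were the lowest, a fall of 1.51-fold (-0.60, SE 0.13, limma adjusted p = 0.00465), and all 4 probe sets were called lower. The dimmest of them (-0.54) lay below background on every array. SPARC, a collagen-binding protein, averaged 8.00 ± 0.22 (SD, n = 4) and 7.64 ± 0.14 (n = 3), which did not pass (-0.36, limma adjusted p = 0.0622). It passed without control replicate 1 (-0.43, adjusted p = 0.022), against control replicates 3 and 4 alone (-0.55, 0.00556), with the filter on the mean (0.044), with cyclic loess (-0.57, 0.00332) and with arrays centred (-0.61, 0.00161).

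THBS1, thrombospondin, an activator of TGF-beta, had no single direction. Its brightest probe set read 10.87, 10.45, 8.11 and 9.35 in the controls and 10.30, 10.13 and 10.54 with PD325901, a difference of 0.63 with a 95% interval of -0.53 to 1.78. Control replicate 3 was the lowest array by more than 1 log2 unit. Against control replicates 3 and 4 alone the difference was 1.59 (adjusted p = 0.00292), and the mean of its probe sets gave 0.68 (0.00128). The next probe set was lower (-0.27, adjusted p = 0.038) and the 2 after it higher (1.29 and 1.54, adjusted p = 2.35e-06 and 1.31e-05), in a limma fit over all 44988 probe sets. THBS1 was the only member with PD325901 calls in both directions.

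COL13A1, the transmembrane collagen of cell adhesion sites, read 11.35, 11.19, 11.14 and 10.98 in the controls, 11.06 and 10.96 with BB94 and 9.55, 9.47 and 9.32 with PD325901. The PD325901 arrays lay more than 1 log2 unit below every other array, a 3.29-fold fall (-1.72, SE 0.10, limma adjusted p = 5.35e-07). All 4 probe sets were called lower, within -1.81 to -1.72.

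The other genes of the pathway were read from 5 lists. With PD325901, 2 of 24 other collagens rose and 2 fell. COL11A2 and COL16A1 rose at least 1.28-fold and at least 1.76-fold from below background, COL15A1 was called lower with 1 of 4 controls and 0 of 3 PD325901 arrays above background, so no size is given, and COL11A1 fell while below background in every group. Of 13 other basement membrane genes 2 rose, FRAS1 (0.73) and NTN4 (0.65), which builds on laminin, and 3 fell, FREM2 (-0.55), PXDN (-0.27), the enzyme that joins type IV collagen by sulfilimine bonds, and LAMA2, which was below background. In collagen maturation 6 of 29 rose, led by LOXL4 (4.07), BMP1 (1.41), the procollagen C-proteinase, and P3H2 (0.66), a prolyl hydroxylase of type IV collagen. In the same list 4 fell, led by TGM2 (-1.80), a cross-linking transglutaminase, LOXL3 (-0.35) and PCOLCE2 (-0.29). SERPINH1, the collagen chaperone, averaged 9.31 in controls, 9.03 with BB94 and 9.27 with PD325901 and was not called in either comparison.

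Of 40 other matrix glycoproteins 12 rose, led by EFEMP1 (1.77), THBS3 (at least 1.72-fold) and MATN2 (1.60, with 1 of 4 controls above background), and 4 fell, led by LTBP2 (-1.88), SPP1 (-1.73), which encodes osteopontin, and ECM1 (-0.53). Of 24 matrix receptors 6 rose, led by ITGB8 (1.30, with 2 of 4 controls above background), GPC1 (1.28) and the collagen receptor DDR1 (0.74). In that list 7 fell, led by ITGA1 (-1.43, at least 2.05-fold) and ITGA2 (-1.39), both alpha chains of collagen-binding integrins, and ITGB5 (-1.04). The share called in either direction was 16.7% of the other collagens, 38.5% of the other basement membrane genes, 34.5% of collagen maturation, 40% of the glycoproteins and 54.2% of the receptors, against 57.6% of the members and 35.1% of all genes. Below background on all 9 arrays were 18 of the 24 other collagens and 8 of the 13 other basement membrane genes. The same held for 4 of 29 in collagen maturation, 22 of 40 glycoproteins, 4 of 24 receptors and 5 of the 33 members. The shares describe lists that differ in how many genes were detected, and they were not tested against each other. DAG1 was not analysed here.

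BB94 left most matrix genes overlapping the controls, which are the same 4 arrays that PD325901 was compared with. Of the 33 members 1 was called lower, LAMA4, and 0 higher, against 1.09% and 0.491% of all genes by the same limma fit (1.58% in either direction), and at an unadjusted p under 0.05 there were 4 lower and 4 higher. Both BB94 arrays lay above all controls for COL4A1, COL5A1, COL6A3, COL7A1 and FN1, against 6.35% of all genes, and below them for AGRN, COL1A1, COL3A1, COL5A2, LAMA4 and NID1, against 11%. The point estimates of the 32 differences that were not called ran from -0.33 to 0.75, a range that is not an interval. With 2 BB94 arrays each SE is larger than for PD325901, and a member not called is not shown to be unchanged. Against control replicates 3 and 4 alone 5 members were called higher, namely FN1, COL6A3 (0.80, adjusted p = 0.0101), LOX (0.59, 0.0114), THBS1 and BGN (0.49, 0.0208, below background). In that fit 2 were called lower, LAMA4 and LAMB3 (-0.44, adjusted p = 0.0457), and 1633 genes were called in all, against 286 with every control.

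LAMA4, whose values on each array are given above, was 1.48-fold lower with BB94 (log2 change -0.57, SE 0.11, 95% interval -0.80 to -0.33, limma adjusted p = 0.0271). The call was lost in 9 of 18 alternative fits while the direction was kept. Leaving out 1 array gave an adjusted p of 0.0611 without control replicate 2, 0.0661 without control replicate 3, 0.082 without BB94 replicate 1 and 0.392 without BB94 replicate 2. In the other probe sets of LAMA4 the BB94 difference was -0.41, -0.54 and -0.02, with none called.

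FN1 read 11.53 and 11.25 with BB94 against 10.39 to 11.07 in the controls, a difference of 0.64 (SE 0.17, 95% interval 0.26 to 1.02, limma adjusted p = 0.128). Both BB94 arrays were above all controls in each of its 8 probe sets. In the fit over all probe sets 6 of the 8 were called higher, by 0.80 to 0.99 (limma adjusted p = 0.0188 to 0.0488), and the brightest one and a dim one were not. The mean of its probe sets was called higher (0.79, adjusted p = 0.0149), as was the brightest without control replicate 1 (0.75, 0.0342) and against control replicates 3 and 4 alone (0.87, 0.0092). COL6A3 differed by 0.66 (SE 0.14, limma adjusted p = 0.0558) and passed without control replicate 1 (0.76, adjusted p = 0.00902), with the filter on the mean (0.0387), with array weights (0.0137), with arrays centred (0.0153) and with cyclic loess (0.00867). THBS1 read 10.43 and 10.46 with BB94, a difference of 0.75 with a 95% interval of -0.56 to 2.06, and of 1.72 (limma adjusted p = 0.0205) against control replicates 3 and 4 alone. Of its other probe sets 3 were called higher (0.62, 0.62 and 0.96, limma adjusted p = 0.0129 to 0.0185).

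**Figure D4:**
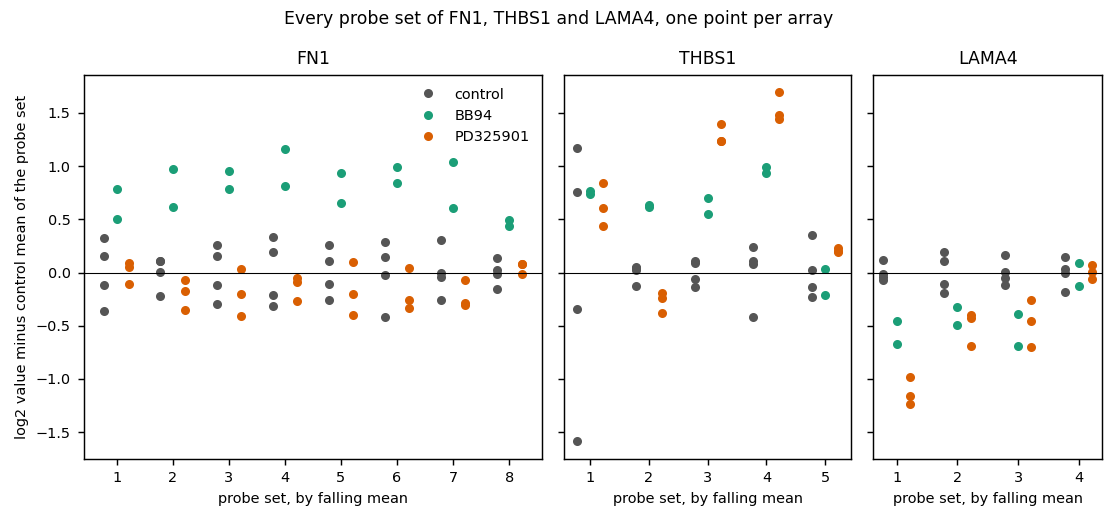
Log2 value of every probe set of FN1, THBS1 and LAMA4 on each array minus its control mean (vertical axis), with probe sets in falling order of mean level (horizontal axis) and points coloured by group. BB94 points lie above the control points in all 8 FN1 probe sets, and the PD325901 points of THBS1 lie above 0 in its probe sets 3 and 4 and below 0 in its probe set 2.

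In the other lists BB94 raised 3 of 40 matrix glycoproteins. These were LTBP1 (0.95, limma adjusted p = 0.0311), a carrier of latent TGF-beta, EFEMP1 (0.69, adjusted p = 0.0123) and FBLN5, which was below background. It raised 1 of 24 receptors, ITGA10, an alpha chain of a collagen-binding integrin, by 3.22-fold (1.69, adjusted p = 0.000205). In the other collagens, other basement membrane genes and collagen maturation lists 0 of 24, 0 of 13 and 0 of 29 genes were called by limma.

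PD325901 and BB94 arrays were also compared directly, without the controls in the contrast. Of the members 11 were higher with PD325901, against 21% of all genes, and 8 lower, against 10.2% (31.2% in either direction). With arrays centred the split was 9 and 13, and with cyclic loess 11 and 10. The calls that held in all 15 alternatives, or in the 14 that kept LUM, were COL4A5 (2.09), COL12A1 (1.14), HSPG2 (1.01), LUM (0.93, below background), LOX (0.85), COL5A2 (0.73) and FBN1 (0.72) among the higher. Among the lower they were LAMB1 (-2.67), COL13A1 (-1.56), COL4A1 (-0.80) and COL4A2 (-0.72). Among these higher calls the BB94 mean lay below the control mean for COL4A5, COL12A1, LUM, COL5A2 and FBN1, and above it for HSPG2 and LOX. The difference from BB94 was 2.2-fold for COL12A1 and 1.66-fold for COL5A2.

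The remaining 8 calls of that comparison each failed in some alternative. FN1 was lower with PD325901 (-0.63, SE 0.18, limma adjusted p = 0.0212), in all 8 of its probe sets by -1.12 to -0.42, but not without BB94 replicate 1 (-0.49, adjusted p = 0.174) or PD325901 replicate 2 (-0.57, 0.0704). LAMA4 was lower (-0.56, adjusted p = 0.00301), but not with the mean of its probe sets (-0.14, 0.346). TNC (-0.49, adjusted p = 0.0367) missed the threshold without BB94 replicate 1 (0.289) and without PD325901 replicate 1 (0.0622), 2 (0.101) or 3 (0.085). LOXL2 (-0.48, adjusted p = 0.0124) missed it without BB94 replicate 1 (0.0957). LAMB2 (0.93, adjusted p = 0.00468), LAMA5 (0.73, 0.00877), COL5A1 (0.58, 0.00378) and COL1A1 (0.42, 0.0112) were higher. Without BB94 replicate 2 these 4 gave adjusted p values of 0.0696, 0.123, 0.059 and 0.0833. COL5A1 was also lost with arrays centred (0.26, adjusted p = 0.0871), and COL1A1 with the mean of its probe sets (0.21, 0.137), with arrays centred (0.09, 0.568) and with cyclic loess (0.13, 0.462). LOXL2 was also lost with the mean of its probe sets (-0.35, 0.137), and TNC with the ACTB covariate (-0.38, 0.0656). Of the 14 members not called in this comparison, 9 were called in some alternative. A gene called against control with PD325901 and not with BB94 is not thereby shown to respond differently, and the direct contrast above is the test of that.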

How the data were processed

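RNA of 9 MDA-MB231 cultures was hybridised to Affymetrix PrimeView arrays. Per the series design text, the authors ran RMA from the affy package, and the deposited value of each probe set is its log2 level. RMA subtracts background, quantile-normalizes the arrays, which can hide a shift shared by most genes, and summarises probes. For the probe sets a genome build was not given in the sources used here. Of 49395 probe sets, 102 controls were left out, 44988 had 1 gene symbol in the platform annotation, 1832 had several and 2473 had none. Of those with 1 symbol 44961 matched RefSeq (GRCh38.p14) and 27 kept the annotation's name. The probe set with the highest mean stood for its gene, giving 18132 genes. Levels are not compared between probe sets.

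The 3 groups entered a single limma 3.58.1 fit (R 4.3.3, lmFit and eBayes, two-sided) of all 9 arrays with no covariate, leaving 6 residual degrees of freedom. Benjamini-Hochberg adjustment ran over all genes, with calls under 0.05. The PD325901 and BB94 comparisons share their 4 controls. "At least N-fold" is the brighter group's mean against the dim group's, each dim array set at the higher of its background level and its own value. Where both groups were under background, no fold is printed. The fit code was also run on simulated data with independent noise for each gene and array. Having no shifts between arrays, that run checks the code and cannot test the calls given here. Array medians were 6.15 to 6.34 in controls, 6.05 and 6.17 with BB94 and 6.31 to 6.34 with PD325901. The number of arrays limits the precision. No 2 arrays held identical values.

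The members, classes and lists were chosen with earlier results of these data known. All called members are named, and those called with an absolute log2 change of at least 0.5 in some comparison have every array's value. Of each further list the 3 highest and 3 lowest called changes are named, and always NID2, SERPINH1 and DAG1. COL4A6 and LOXL4 beside its relatives were added after their values were seen. Alternatives were other probe set rules, a filter on the mean, a trended and robust fit, array weights, centring, cyclic loess, the ACTB covariate, the replicate number as a block, control replicates 1 and 2 or 3 and 4 alone, the arrays compared alone, and each array left out.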

Additional observations from a re-analysis of the deposited data

Results flagged for a closer look

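In the 33 members the 4 controls were searched for an array far from the others, by a gap beyond Dixon's critical value at 95%, which chance alone gives in about 1 in 20 groups. COL3A1 read 4.05 in control replicate 3 and 3.80 to 3.81 in the others, a gap of 0.967 of the range. LUM read 3.25 in control replicate 4 and 3.49 to 3.52 in the others, a gap of 0.909 of the range. Both genes lay below background on all 9 arrays, so neither array decides a level given above.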

How the results depend on the processing

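No member called in a comparison changed direction under any alternative. For PD325901, 15 of 19 member calls held under all 19 alternatives, or the 18 that kept LUM, which the filter removes. Members called lower numbered 7, and 12 with arrays centred. The basement membrane median was -0.22 with arrays centred, and the interstitial median was -0.01 with arrays centred, 0.10 with cyclic loess and 0.38 against control replicates 3 and 4 alone. For BB94, members called higher numbered 1 with the mean of probe sets, with the filter, with array weights, with arrays centred and with cyclic loess, 5 against control replicates 3 and 4, and 0 to 2 with 1 array left out. Members called lower numbered 0 with the mean of probe sets, the ACTB covariate, the replicate block, control replicates 1 and 2 or the compared arrays alone, 2 against control replicates 3 and 4, and 0 to 1 with 1 array left out. All genes called for BB94 numbered 286, and 469 with array weights, 156 with the ACTB covariate, 161 with the replicate block, 1633 against control replicates 3 and 4, 140 with the compared arrays alone and 62 to 367 with 1 array left out. The BB94 basement membrane median was 0.00 against control replicates 1 and 2 and -0.21 to 0.06 with 1 array left out, and the interstitial one -0.08 to 0.13. For PD325901 against BB94, members called higher numbered 7 to 11 with 1 array left out, and those called lower 13 with arrays centred and 5 to 8 with 1 array left out. Its basement membrane median was -0.16 with arrays centred and -0.03 with cyclic loess, and its interstitial median 0.02 with the filter and -0.18 with arrays centred. Where no value above shows it, the cause was not tested. Deviations from group means in samples of the same number had correlations over genes of 0.05, -0.10 and -0.18 for PD325901 with control. For BB94 they were -0.19 and 0.12. Such deviations cancel within each group, and the 2 BB94 arrays mirror each other. The correlations therefore cannot decide whether cultures of the same number were set up together. The block gave LAMA4 a limma adjusted p of 0.0784 for BB94. With the replicate block 5950 genes were called for PD325901, and 12 members were higher and 7 lower.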
